A study of Homo sapiens with 4 samples.

Results

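The class I antigen presentation genes followed here are 9 genes, HLA-B, HLA-C, HLA-E, B2M, TAP1, TAP2, TAPBP, PSMB8 and PSMB9. They were chosen by symbol, as every probe set whose RefSeq transcript maps to one of those symbols, which gave 13 of 18866 named probe sets and 9 of 17185 named genes. HLA-B, HLA-C, HLA-E, B2M, TAP1 and PSMB9 had 1 probe set each, TAP2 and PSMB8 had 2, and TAPBP had 3. The cells were KYSE410, a long-established cell line from a human squamous carcinoma of the oesophagus. They were exposed for 24 h to tumour necrosis factor α (TNFα), to interleukin 1β (IL1β), to lipopolysaccharide (LPS, from the outer membrane of Gram-negative bacteria) or, as the solvent control, to phosphate-buffered saline (PBS), in medium with fetal bovine serum in all 4 groups. The experiment was a screen for transcripts that inflammatory signals change. Each condition was measured on 1 single-colour array, which leaves the differences without an error and without a p-value. The values are intensities on a linear scale after robust multi-array averaging (RMA), and differences are given on the log2 scale.

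Class I molecules display peptides from inside the cell to CD8 T cells. Proteasomes cut the proteins, and in inflamed tissue the immunoproteasome subunits PSMB8 and PSMB9 can replace constitutive ones and change which peptides are made. The TAP1 and TAP2 transporter carries peptides into the endoplasmic reticulum. There TAPBP (tapasin) holds an empty class I molecule, a heavy chain paired with β2-microglobulin (B2M), close to the transporter until a peptide binds. Genes of this pathway are known targets of interferon signalling, through IRF transcription factors, and of NF-κB, the factor that TNFα, IL1β and LPS activate.

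TAP2, PSMB8, TAP1 and PSMB9 lie in that order on chromosome 6, in the class II region of the major histocompatibility complex. TAP1 and PSMB9 face away from each other, with 487 bases between their annotated transcription starts. The 250 bases before each of the 2 starts are printed because this stretch serves both genes, which had different values in these data. Sequences are from RefSeq, build GRCh38.p14, at chr6:32853705-32853954 on the minus strand for TAP1 and chr6:32853942-32854191 on the plus strand for PSMB9, and they share 13 bases. Capitals mark matches to the motifs described after them.
TAP1: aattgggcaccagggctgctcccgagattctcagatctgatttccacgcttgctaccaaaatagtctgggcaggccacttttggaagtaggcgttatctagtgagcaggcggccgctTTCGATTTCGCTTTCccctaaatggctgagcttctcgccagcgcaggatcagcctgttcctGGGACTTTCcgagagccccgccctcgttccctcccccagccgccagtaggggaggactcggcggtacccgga
PSMB9: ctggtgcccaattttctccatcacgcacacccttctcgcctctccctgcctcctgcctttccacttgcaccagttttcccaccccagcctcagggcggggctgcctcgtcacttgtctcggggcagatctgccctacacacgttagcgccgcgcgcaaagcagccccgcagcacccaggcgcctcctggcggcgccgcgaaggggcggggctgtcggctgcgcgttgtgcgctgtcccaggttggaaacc

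Windows from 250 bases before to 50 bases after a start were searched on both strands for GAAANNGAA, a core of IRF binding sites. They were also searched for GGGNNNTTC and GGGNATTCC, called κB-type because they resemble the κB site, whose full letters they do not require. The letters were chosen after the sequences and their matches had been seen, and this is the third set tried, so the matched genes are no result of a search fixed in advance. GGGNATTCC was added with the HLA-B sequence in view. A match is a description of letters, not evidence of binding. RefSeq held 10 windows for 8 of the 9 genes, with no entry for HLA-E. The IRF-type motif was in the windows of 5 genes (B2M, TAP1, TAP2, TAPBP and PSMB8), and a κB-type motif in those of 5 (HLA-B, HLA-C, B2M, TAP1 and TAPBP). Of all 35116 windows 8.11% held GAAANNGAA, 15.5% held GGGNNNTTC and 0.820% held GGGNATTCC, while 1.25% held both the IRF-type and a κB-type motif. B2M, TAP1 and TAPBP held both kinds, GGGNATTCC was in HLA-B and B2M, and the window of PSMB9 held no match. The matches of TAP1 lie between its start and that of PSMB9, but outside the PSMB9 window, which covers 250 of the 487 bases. The second set, with GAAANNGAA and the κB-type letters GGNNNTTCC, matched 20.1% of all windows with its κB-type motif and 1.46% with both kinds. Of the class I genes it gave κB-type matches in 5 (HLA-B, B2M, TAP1, TAPBP and PSMB8) and both kinds in 4, so HLA-C and PSMB8 gain or lose a κB-type match with the letters used. The first set held the motifs with 1 more letter each and is not used here. In TAP1, TAPBP and B2M a pair of IRF-type matches overlapped, and matches of different motifs did not. In PSMB8 the match lay across the inner of 2 annotated starts. The following stretches of 30 bases are shown because they hold IRF-type matches of the other genes or a κB-type match close to one, or for HLA-B the rarer κB-type match, at chr15:44711373-44711402 (plus strand) for B2M, and on the minus strand at chr6:32838778-32838807 for TAP2, chr6:33314076-33314105 and chr6:33314115-33314144 for TAPBP, chr6:32844031-32844060 for PSMB8 and chr6:31357337-31357366 for HLA-B.
B2M: GAAAAGGAAACTGAAaacggGAAAGTCCCt
TAP2: ctggggaagcGAAAGCGAAagctgcccgag
TAPBP, IRF-type: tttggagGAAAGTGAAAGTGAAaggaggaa
TAPBP, κB-type: taaccagagcGGGGATTTCcaccgcccctc
PSMB8: atctgtggctTTCGCTTTCacttcctcctc
HLA-B: gcgcagcgttGGGGATTCCccactcccctg

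**Figure D1:**
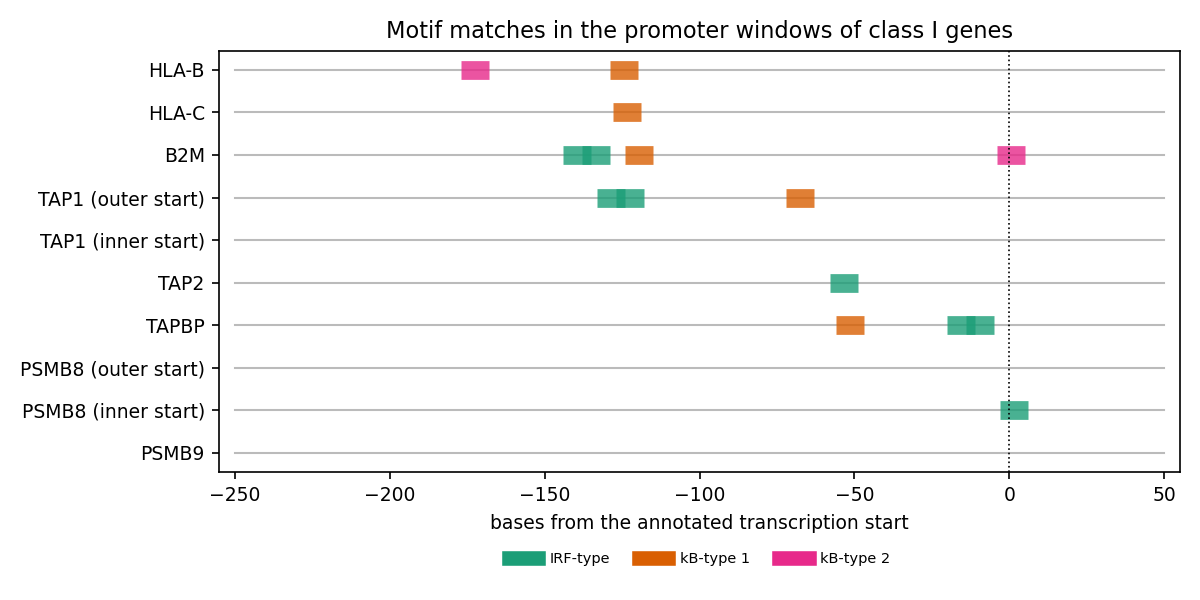
Position of motif matches, in bases from the annotated transcription start, in the 10 promoter windows of 8 class I genes. The IRF-type matches (GAAANNGAA, green) lay in B2M, TAP1, TAP2, TAPBP and the inner start of PSMB8, and the κB-type matches (GGGNNNTTC, orange, and GGGNATTCC, pink) in HLA-B, HLA-C, B2M, TAP1 and TAPBP.

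Median intensities of the 4 arrays lay between 245 and 259.5, and a control set of 5000 random-sequence probes read between 54.1 and 56.4. A gene is called higher or lower if its values on a pair of arrays were 2-fold or more apart and the larger of them was at or above a floor, the median level of named genes (8.02 on the log2 scale, or 260.5). All 9 class I genes reached the floor in every comparison. Markers of squamous epithelium, the labelled cell type, were all measured, and 9 of 10 or 10 of 10 were at the floor on each array. Their summed intensity was 115335 to 170377. CDH1 was 5.22-, 4.22- and 4.26-fold lower than PBS with TNFα, IL1β and LPS, and ITGA6 2.91-, 4.51- and 2.76-fold lower. KRT14, KRT17 and TP63 were higher with LPS, by 2.38-, 2.12- and 2.79-fold. Markers of other cells were also present. The summed intensity of 14 leukocyte markers was 12177 with TNFα, 15243.5 with IL1β and 1758 with LPS, against 9653 with PBS. That of 6 heart muscle markers was 49630 with TNFα, 57877 with IL1β and 13781 with LPS, against 37686 with PBS. With LPS, MYH6, MYH7, TNNI3 and TNNT2 were lower than PBS, by 117-, 45.6-, 12.3- and 11.0-fold. ACTC1, which was neither higher nor lower, made up most of the LPS sum, with 12945. With TNFα, TNNI3 was higher (2.08-fold). Of the leukocyte markers 2 (PTPRC and FCGR3A) were higher than PBS with TNFα and 4 (PTPRC, CSF1R, FCGR3A and CD86) with IL1β. With LPS 3 (CD68, TYROBP and LYZ) were lower. The leukocyte markers at the floor in these comparisons numbered 6, 7 and 3. Of named genes at the floor 3.37% were higher and 3.4% lower with TNFα, 3.13% and 3.57% with IL1β, and 8.83% and 7.42% with LPS. The myeloid gene LYZ was the brightest of the 14 on the cytokine and PBS arrays, with 5600.3 with TNFα, 10389.6 with IL1β and 209 with LPS, against 6917 with PBS. On the PBS array TYROBP and CD68, which also mark myeloid cells, read 14.8 and 11.2 times the random control set, and FCGR3A read 52.1 times it with TNFα. CD3E, MS4A1 and ITGAM were below 2 times the random control set on all 4 arrays. Fibroblast markers summed to between 1025 and 1742 and endothelial markers to between 777 and 1245.

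TAP1, one of the 2 chains of the peptide transporter, was the class I gene that differed most from PBS on the TNFα and LPS arrays. It had an intensity of 2596 with TNFα, 2877 with IL1β and 5369 with LPS, against 666 with PBS. All 3 stimulated arrays were thus higher than the PBS array, and LPS was the brightest. The log2 differences from PBS were 1.96, 2.11 and 3.01 for TNFα, IL1β and LPS. Among named genes at the floor, 0.786% were at least as far above PBS in the TNFα comparison, 0.552% in that of IL1β and 0.393% in that of LPS. These 3 values share a single PBS array and a single probe set of 3 probes. Set directly against each other, LPS was 2.07-fold higher than TNFα and 1.87-fold above IL1β, while the log2 difference of TNFα from IL1β was -0.15. In bulk RNA, more cells with the transcript and more transcript per cell cannot be told apart. The summed leukocyte markers were above PBS on the cytokine arrays. With TNFα 6 of the 14 were at the floor and 2 were higher, and with IL1β 7 were at the floor and 4 were higher. Of named genes at the floor 3.37% and 3.13% were higher. PTPRC was 14.2-fold and FCGR3A 13.7-fold higher with TNFα. On the LPS array, where TAP1 was brightest, the leukocyte sum was the lowest. There 9 of the 14 leukocyte markers were below 2 times the random control set. The part of leukocyte or heart muscle transcripts in the TAP1 values was not tested.

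**Figure D2:**
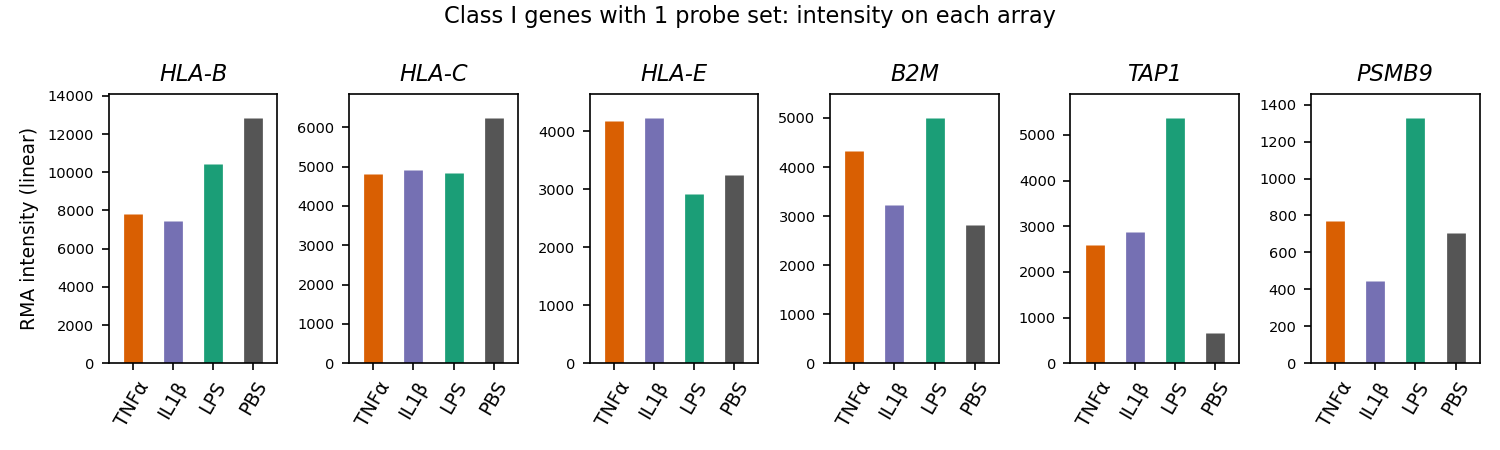
RMA intensity on a linear axis from 0, for the 6 class I genes with 1 probe set, on the TNFα, IL1β, LPS and PBS arrays (1 array each, no error bars). Axes differ between genes and levels are comparable only within a gene. TAP1 read 2596, 2877 and 5369 on the stimulated arrays and 666 on the PBS array, whereas HLA-B and HLA-C were brightest with PBS.

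TAP2, the other chain, did not follow TAP1, and its probe sets differed from each other. The set for NM_018833 had 1044 with TNFα, 819 with IL1β and 410 with LPS, against 685 with PBS. The set for NM_000544 had 376 with TNFα, 497 with IL1β and 480 with LPS, against 734 with PBS. The first set was thus brightest with TNFα, where the second was dimmest. Their log2 differences from PBS were 0.61 and -0.97 with TNFα, 0.26 and -0.56 with IL1β, and -0.74 and -0.61 with LPS. The gap of 1.57 with TNFα was matched or exceeded by 10 of 683 genes with 2 probe sets at the floor, TAP2 included. Neither set was 2-fold different from PBS on any array. Between stimuli, the first set was 2.54-fold lower with LPS than with TNFα, a direction that the second set did not share (log2 difference 0.36).

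TAPBP, which tethers empty class I molecules to the transporter, had 3 probe sets. That for NM_003190 had 1965 with TNFα, 1731 with IL1β and 2919 with LPS, against 2372 with PBS. That for NM_172208 had 771 with TNFα, 815 with IL1β and 407 with LPS, against 893 with PBS. That for NM_172209 had 860 with TNFα, 816 with IL1β and 566 with LPS, against 1021 with PBS. All 3 sets were dimmer with both cytokines than with PBS, by log2 differences between -0.45 and -0.13. With LPS the first set was the brightest of its 4 arrays and the other two the dimmest of theirs. The log2 differences were 0.30, -1.14 and -0.85, so that NM_172208 was 2.20-fold lower while the set that stands for the gene was neither higher nor lower.

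PSMB8, the immunoproteasome subunit that takes the place of PSMB5, gave opposite readings from its 2 probe sets with both cytokines. The set for NM_004159 had 509 with TNFα, 997 with IL1β and 413 with LPS, against 197 with PBS. The set for NM_148919 had 155 with TNFα, 122 with IL1β and 864 with LPS, against 466 with PBS. The first was thus brighter on all 3 stimulated arrays than with PBS, and the second was dimmer with the cytokines and brighter with LPS. With TNFα the log2 differences were 1.37 and -1.59, with IL1β 2.34 and -1.93, and with LPS 1.07 and 0.89.

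The gap between the 2 sets of PSMB8 was 2.95 with TNFα and 4.27 with IL1β, the largest among the 683 and 678 genes with 2 sets at the floor. With TNFα, PSMB8 and UNC119 were the only 2 of 683 genes whose sets were at least 2-fold different in opposite directions. With IL1β, PSMB8 was the only 1 of 678. With LPS its gap was 0.18, as large or larger in 524 of 701 genes. On the TNFα and IL1β arrays NM_148919 read 2.78 and 2.17 times the random control set, so its low values there lay close to background. On the PBS array NM_004159 was below the floor, at 3.64 times the random control set, and that value enters all 3 of its differences. The 2 transcripts are annotated forms of PSMB8, and RefSeq gives the gene 2 transcription starts. Whether each probe set reads only 1 form was not tested, since probe sequences were not used here. PSMB8 stands for the gene through NM_004159, the set with the higher mean level. Any count of the gene as higher rests on that choice. With LPS too, NM_148919 was less than 2-fold above PBS (0.89).

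**Figure D3:**
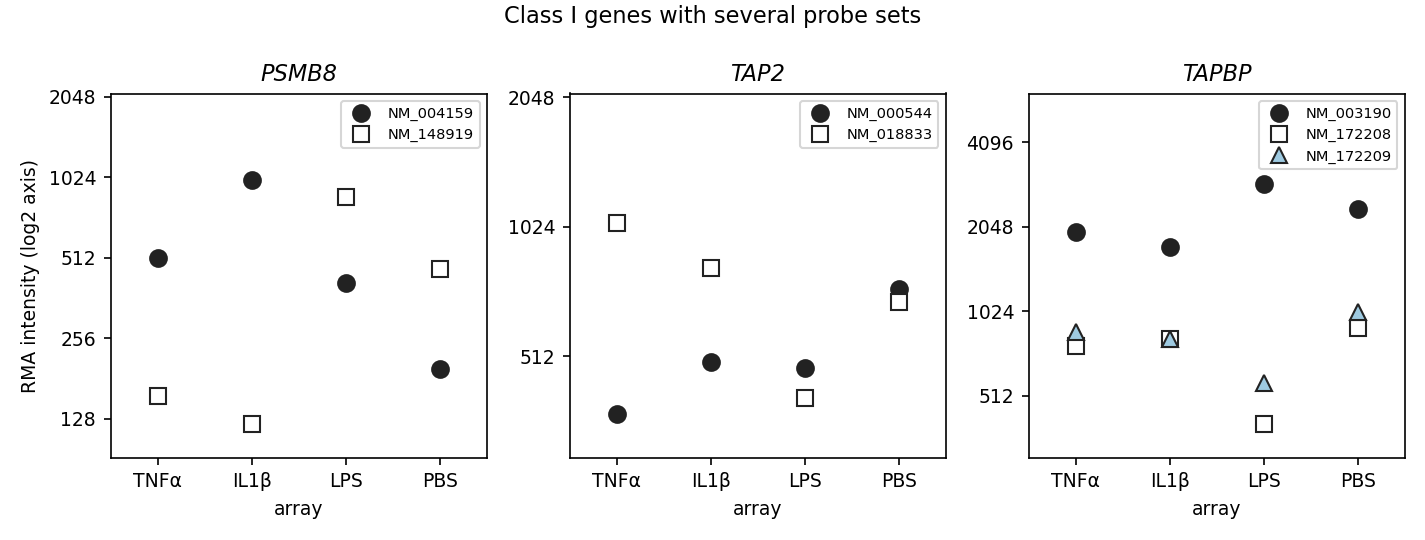
RMA intensity on a log2 axis of every probe set of PSMB8, TAP2 and TAPBP on the TNFα, IL1β, LPS and PBS arrays (1 array each). The 2 sets of PSMB8 lie in opposite order with the cytokines and with PBS: NM_004159 read 509 and 997 with TNFα and IL1β and 197 with PBS, and NM_148919 read 155, 122 and 466.

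PSMB9, the immunoproteasome subunit that takes the place of PSMB6, had 768 with TNFα, 447 with IL1β and 1328 with LPS, against 706 with PBS. The LPS array was the brightest and the IL1β array the dimmest. The log2 differences from PBS were 0.12, -0.66 and 0.91, none of them 2-fold. Set directly against IL1β, LPS was 2.97-fold higher. TAP1, which starts 487 bases away on the other strand, differed from PBS by 1.84 more than PSMB9 with TNFα, 2.77 more with IL1β and 2.10 more with LPS on the log2 scale. Differences read by 2 sets of 1 gene disagreed with SDs of 0.59, 0.61 and 0.76 in the same 3 comparisons, and the part of the probes in these gaps was not tested.

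B2M, the light chain of every class I molecule, had 4324 with TNFα, 3228 with IL1β and 4999 with LPS, against 2820 with PBS. It was dimmest with PBS, and the log2 differences were 0.62, 0.19 and 0.83, under 2-fold each time. HLA-B, a classical heavy chain, had 7813 with TNFα, 7472 with IL1β and 10424 with LPS, against 12840.5 with PBS. Its brightest array was PBS, with log2 differences of -0.72, -0.78 and -0.30. HLA-C, another classical heavy chain, had 4807 with TNFα, 4919 with IL1β and 4845 with LPS, against 6238 with PBS. The 3 stimulated arrays lay within 112 units of each other and below PBS, by -0.38, -0.34 and -0.36. HLA-E, a heavy chain that displays leader peptides of other class I chains to natural killer cells, had 4182 with TNFα, 4232 with IL1β and 2912 with LPS, against 3252 with PBS. The cytokine arrays were above PBS by 0.36 and 0.38, and LPS differed by -0.16. None of the 3 heavy chains reached 2-fold in any of the 6 pairs of arrays. Most named genes at the floor did not either, with between 1.74% and 10.5% of them called in each direction of a pair. Genes for HLA-B, HLA-C, HLA-F and HLA-G are close in sequence, so a probe set of one may also read another, which was not tested.

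**Figure D4:**
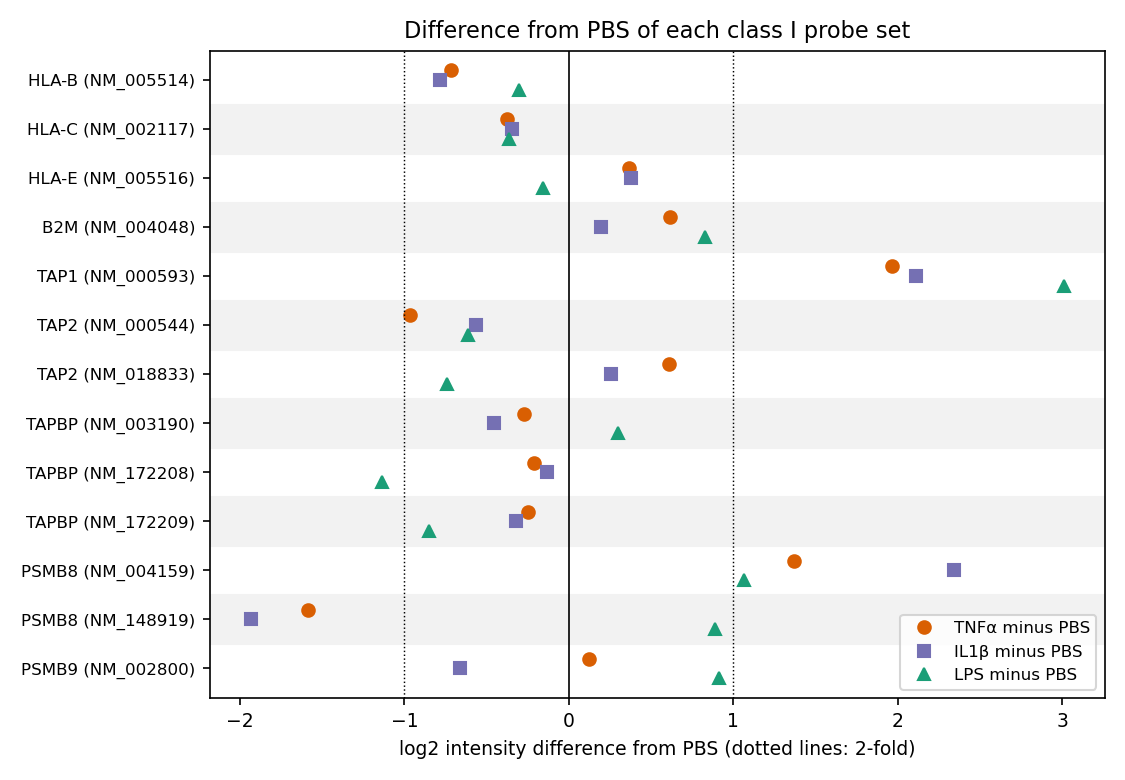
Log2 intensity difference from PBS for each of the 13 class I probe sets, with TNFα (circles), IL1β (squares) and LPS (triangles), and dotted lines at 2-fold. TAP1 lies beyond 2-fold with all 3 stimuli, the 2 sets of PSMB8 lie on opposite sides of 0 with the cytokines, and the sets of HLA-B, HLA-C, HLA-E, B2M and PSMB9 lie within 2-fold.

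Counted as genes, 2 of 9 were higher and 0 lower than PBS with TNFα, against 3.37% of named genes at the floor higher and 3.4% lower. With IL1β 2 were higher and 0 lower, against 3.13% and 3.57%. With LPS 2 were higher and 0 lower, against 8.83% and 7.42%. The 2 genes were TAP1 and PSMB8 each time, in comparisons that share the PBS array. The median log2 difference of the 9 was 0.36 with TNFα, 0.19 with IL1β and 0.30 with LPS, beside medians of -0.07, -0.05 and 0.05 over all named genes at the floor. The sign of this median rested on the probe set taken for PSMB8, TAP2 and TAPBP. With a gene's probe sets averaged it was -0.11 with TNFα, -0.15 with IL1β and -0.16 with LPS, and with the dimmest set -0.21, -0.34 and -0.16. The 9 genes ranged between -0.72 and 1.96, between -0.78 and 2.34 and between -0.74 and 3.01. Between stimuli, TAP1 was higher and TAP2 lower with LPS than with TNFα, where 9.93% of named genes at the floor were higher and 7.09% lower. PSMB9 was higher and PSMB8 (2.41-fold) lower with LPS than with IL1β, against 10.5% and 7.45%. For PSMB8 the other set went the opposite way, with a log2 difference of 2.82. None of the 9 differed 2-fold between TNFα and IL1β, a pair in which 1.87% were higher and 1.74% lower with TNFα.

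**Figure D5:**
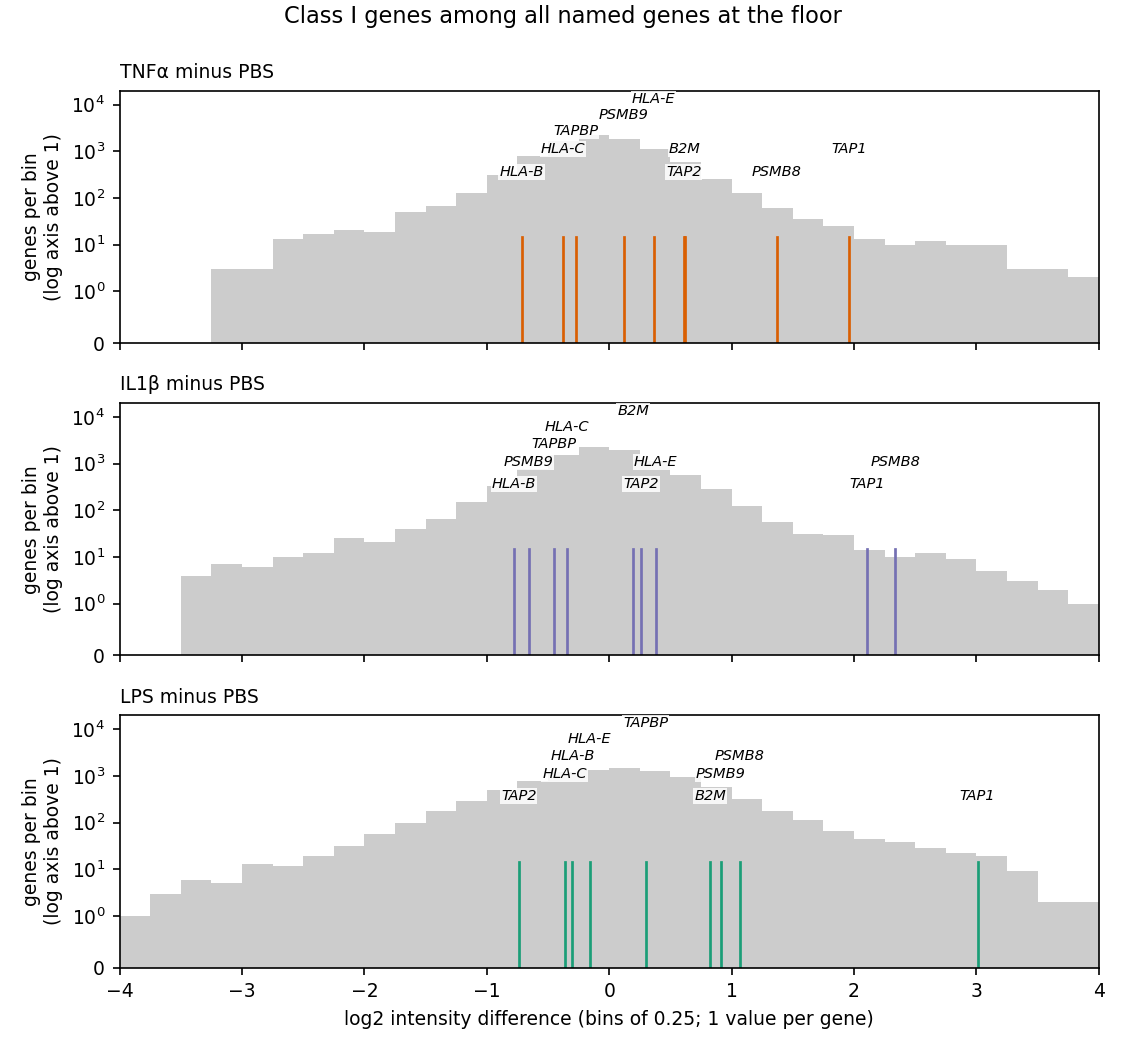
Number of named genes at the floor by log2 intensity difference from PBS, in bins of 0.25 on a log axis, with the 9 class I genes as coloured lines (genes beyond 4 in either direction are not drawn). TAP1, at 1.96, 2.11 and 3.01, and PSMB8, at 1.37, 2.34 and 1.07 by its set NM_004159, lie in the upper tail, and the other 7 genes lie within 2-fold.

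A list of 47 other genes of the pathway, all measured, was set beside them. With TNFα 4 were higher and 1 lower among the 30 at the floor, with IL1β 3 and 0 of 30, and with LPS 5 and 4 of 32. Of named genes at the floor 3.37% were higher and 3.4% lower with TNFα, 3.13% and 3.57% with IL1β, and 8.83% and 7.42% with LPS. The list's median log2 difference was -0.06 with TNFα, -0.05 with IL1β and -0.01 with LPS. Over all named genes it was -0.03, -0.03 and 0.02.

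Among the 14 regulators, IRF1, an activator of class I and TAP1 transcription, had 1023 with TNFα, 495 with IL1β and 704 with LPS, against 147 with PBS. IRF2, which binds the same sites, had 840 with TNFα, 1164 with IL1β and 1116 with LPS, against 195 with PBS. Both were higher on all 3 stimulated arrays. NLRC5, the transactivator of class I genes, had 255 with TNFα, 149 with IL1β and 433 with LPS, against 172 with PBS, and was higher with LPS (2.53-fold). STAT2, a transcription factor of interferon signalling, was 3.36-fold lower with LPS, and NFYA, a subunit of the CCAAT-binding factor NF-Y, 2.11-fold lower.

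Among other class I and class I-like heavy chains, HLA-F and HLA-G lay below PBS with the cytokines, by log2 differences between -0.31 and -0.18, and close to it with LPS (-0.01 and 0.13). MICA, a stress ligand for the natural killer receptor NKG2D, had 257 with TNFα, 327 with IL1β and 256 with LPS, against 584 with PBS, and was lower with TNFα (2.27-fold) and LPS (2.28-fold). HFE, a class I-like regulator of iron uptake, was 3.35-fold higher with LPS.

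Of 8 other proteasome genes none was higher than PBS with any stimulus, and 1, the activator subunit PSME3, was lower with LPS (2.14-fold). Over named genes at the floor the shares higher were 3.37%, 3.13% and 8.83% with TNFα, IL1β and LPS. The share lower with LPS was 7.42%. PSMB10, the third immunoproteasome subunit, had 715 with TNFα, 589 with IL1β and 1026 with LPS, against 725 with PBS. Its order of arrays was LPS, then PBS and TNFα, then IL1β. The constitutive subunits that PSMB8, PSMB9 and PSMB10 replace differed from PBS by less than 2-fold. PSMB5 differed by -0.52, -0.03 and -0.52, PSMB6 by -0.41, -0.23 and -0.02, and PSMB7 by -0.36, -0.15 and 0.17 with TNFα, IL1β and LPS. Of the 6 peptide loading and trimming genes 4 were at the floor in each comparison with PBS, and none of these was 2-fold different. CANX, the chaperone calnexin, had 7718 with TNFα, 8088 with IL1β and 7656 with LPS, against 5038 with PBS.

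Counted by the probe set that stands for each gene, only 1 or 2 of 11 class II genes reached the floor in each comparison with PBS. IFI30, a lysosomal thiol reductase, had 10635 with TNFα, 9364 with IL1β and 13436 with LPS, against 3760 with PBS, and was higher with all 3. HLA-DPB1, a class II chain, had 301 with TNFα, 171 with IL1β and 79.1 with LPS, against 139 with PBS, and was higher with TNFα (2.17-fold). CIITA, the class II transactivator, read between 66.8 and 80.6 on the 4 arrays.

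Between stimuli, 4 more genes of the list differed at least 2-fold with the larger value at the floor. Genes of the list below the floor were not called, whatever their fold. POMP, a chaperone of proteasome assembly, had 909 with TNFα, 734 with IL1β and 2200.4 with LPS, against 1380 with PBS, and was higher with LPS than with TNFα and IL1β, by log2 differences of 1.28 and 1.58. PSME1, a subunit of a proteasome activator, was 2.23-fold higher with LPS than with IL1β by its set NM_006263. Its set NM_176783 was less than 2-fold apart there, with 2851 with LPS and 2237 with IL1β. RFXANK, a subunit of the RFX complex that binds class I and class II promoters, was 2.08-fold higher in the same pair. CD74, the invariant chain of class II molecules, was 2.20-fold lower in it by the set that stands for the gene, NM_001025159. NM_001025158 had 155 with IL1β and 110 with LPS, and NM_004355 had 234 and 94.8. Against PBS, NM_004355 differed by 1.47 with TNFα and NM_001025158 by -1.31 with LPS. In those comparisons the set that stands for the gene differed by 0.31 and -0.67.

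Genes with LOC, LINC, FAM or orf symbols were left out of the comparison with TAP1. Of the 8507 other named genes that remained with a mean level at the floor, the 5 whose 3 differences from PBS were closest to those of TAP1 were SNAI1, HIF1A, MGLL, IRF2 and CXCR4. Their Euclidean distances were 0.40, 0.60, 0.65, 0.70 and 0.73 in log2 units. The measure rests on 4 arrays, and the PBS array enters all 3 differences. SNAI1, a transcriptional repressor, differed from PBS by 2.24 with TNFα, 2.21 with IL1β and 2.74 with LPS. IRF2 differed by 2.11, 2.58 and 2.52. Of the other class I genes PSMB8, by its set NM_004159, was the nearest, at a distance of 2.04 with 78 genes closer. B2M followed at 3.20 with 608 closer, and HLA-B was the farthest at 5.15 with 7760 closer.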

How the data were processed

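Total RNA was reverse-transcribed and labelled with Cy3 in 1 colour with a NimbleGen kit, per the labels' protocols. The authors deposited an RMA intensity, not logged, for each probe set of each array. RMA usually equalises the distributions of arrays, which leaves only changes against most other genes. Software, settings, doses, genome build: not given in the sources used here. Array number limits the precision. Of 45033 probe sets 18866 (41.9%) had an accession, without version, of 1 RefSeq symbol (GRCh38.p14). For genes with several sets, the one highest in mean log2 intensity was used. No test was possible with single arrays. Members, lists, the 2-fold rule and the floor were chosen with earlier results of these data known. Named are the members with every probe set, PSMB5, PSMB6, PSMB7, PSMB10, NLRC5, IRF1 and the 5 genes closest to TAP1. Also named are pathway genes 2-fold or more different between any 2 arrays with the larger value at the floor. HLA-F, HLA-G, CANX, CIITA, UNC119 and the squamous, leukocyte and heart muscle markers were named after their values had been seen. Some genes of the lists are not reported here. The motif letters were changed 2 times after their matches had been seen. The alternatives tried were another floor (none, or the 75th percentile), the mean or the dimmest of a gene's probe sets, loess centring (span 0.3), a second quantile normalization, 50.9 added before log2, the series value table (identical), and thresholds of 1.5-fold and 3-fold. Tools were Python 3.11.15 with pandas 2.3.3, numpy 2.4.6, matplotlib 3.10.9 and statsmodels 0.14.6.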

Additional observations from a re-analysis of the deposited data

How the results depend on the processing

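TAP1 kept its call of higher in all 3 comparisons with PBS under the 5 alternatives that could have ended it (the higher floor, both normalizations, the offset and the 3-fold threshold). The other 5 could not, since it has 1 probe set, the series value table is identical, and the lower floor and threshold only loosen the rule. By contrast, the call of PSMB8 depended on the probe set. With the mean of all probe sets its log2 difference was -0.11 with TNFα, 0.20 with IL1β and 0.98 with LPS. With the dimmest set it was -1.59, -1.93 and 0.89. Genes called higher numbered 2 in each comparison. They numbered 1 with the mean of all probe sets and with the dimmest set in all 3 comparisons, 1 with a floor at the 75th percentile or a 3-fold threshold with TNFα and LPS, 1 with the offset with LPS, and 4 at 1.5-fold with TNFα and LPS. Genes called lower numbered 0. They numbered 1 with the dimmest set in all 3 comparisons (PSMB8 with the cytokines and TAPBP with LPS), 1 at 1.5-fold with TNFα (HLA-B) and with LPS (TAP2), and 2 at 1.5-fold with IL1β (HLA-B and PSMB9). The median of the 9 genes turned from positive to negative with the mean of all probe sets (-0.11 with TNFα, -0.15 with IL1β and -0.16 with LPS) and with the dimmest set (-0.21, -0.34 and -0.16), and kept its sign under the other 4 alternatives run on it. With the earlier κB-type letters, an alternative chosen after seeing the data, class I genes with both kinds of motif numbered 4 in place of 3. No paired analysis was possible because each group had 1 array. Low signal limits the set NM_148919 of PSMB8 with the cytokines, and its set NM_004159, IRF1 and IRF2 with PBS. No difference here has a replicate check.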
